A study of Homo sapiens with 12 samples.

Results

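The HOX genes of the 4 human clusters were described through the H3K27ac peaks that overlap them. H3K27ac, histone H3 acetylated at lysine 27, marks promoters and enhancers in use. Members were chosen by position alone: every peak that shares bases with one of 4 windows of the hg19 build. HOXA was read on chromosome 7 from 27120000 to 27260000 and HOXB on chromosome 17 from 46600000 to 46820000. HOXC was read on chromosome 12 from 54320000 to 54460000 and HOXD on chromosome 2 from 176940000 to 177060000. The windows hold 38 named HOX genes on 620 kb: 10 of HOXA, 10 of HOXB, 9 of HOXC and 9 of HOXD. Of 190767 peaks in 6 lists, 272 overlapped a window, and 3 of these crossed a window edge.

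The study profiled 3 pancreatic cancer cell lines grown under standard conditions and left untreated: BxPC3, an epithelial line from a primary tumour, SUIT2, from a liver metastasis, and Panc327. For each of them 2 H3K27ac ChIP libraries and 2 inputs were made, and the 6 ChIP libraries each have their own peak list. The labels do not say whether the replicates came from separate cultures, so each spread below is that between libraries. With 2 libraries against 2, the smallest two-sided exact permutation p is 0.333. Lines were therefore not tested against each other, and values are given per library. The read depth was not stated in the lists; the lists held 27776 (Panc327 replicate 1) to 38335 peaks (BxPC3 replicate 2) and covered 34.1 (Panc327 replicate 1) to 63.3 Mb (SUIT2 replicate 2).

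HOX genes encode homeodomain transcription factors that give cells their position along the body axis. Within a cluster the genes lie in the order of their domains along that axis. Genes of low paralogue number act towards the head, and genes of paralogue group 13 act in the hindgut, the limb tips and the urogenital tract. In cells where a HOX gene is silent, Polycomb proteins keep it under H3K27 methylation, and in cells where it is active the same lysine carries acetylation. Differentiated cells keep a HOX pattern that reflects the place they came from. The pancreas forms from the gut tube at the foregut to midgut border.

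The order of the genes was read from the RefSeq table of GRCh38.p14. Along the chromosome, HOXA runs from HOXA2 to HOXA13 and HOXB from HOXB1 to HOXB13. HOXC runs the other way, from HOXC13 to HOXC4, as does HOXD, from HOXD13 to HOXD1. Positions below are given as distances from the window edge that lies beyond the group 13 gene, called the group 13 edge, and the group 13 side is the part between that edge and the midpoint. No gene positions on hg19 were used, so no peak is assigned to a gene, and the lines could not be checked against marker genes of their cell type.

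Several microRNA genes also lie between the HOX genes of these clusters, and mature sequences are shown for the miR-196 genes, whose seed recurs in several clusters, and for miR-10a of HOXB. The seed, bases 2 to 8, is in capitals.
hsa-miR-196b-5p (HOXA cluster): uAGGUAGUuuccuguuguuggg
hsa-miR-196a-5p (HOXB and HOXC clusters): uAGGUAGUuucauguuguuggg
hsa-miR-10a-5p (HOXB cluster): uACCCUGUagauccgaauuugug
The miR-196 sequences of HOXA, HOXB and HOXC share 1 seed, and they are known to bind HOX transcripts. The seed of miR-10a-5p differs from it.

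Promoter sequences were at hand for 20 of the 38 HOX genes, which make up 19 different sequences because HOXC4 and HOXC5 share a listed start. Most of these genes are of HOXA and HOXD. HOXB1 is the only HOXB gene among them, and HOXC4 and HOXC5 are the only HOXC genes, so the shares below say little about HOXB and HOXC. The sequences run from 250 bases before to 50 bases after the start (RefSeq, GRCh38.p14). The pentamer CCAAT, searched on both strands, is the core of a known promoter element, the CCAAT box. It was found in 17 of the 20 (85%) against 35.7% of 27305 promoters of the same length. A ratio of observed to expected CpG above 0.6 was found in 18 of the 20 (90%) against 48.9% of all. The exceptions were HOXB1 (0.436) and HOXD4 (0.244). By contrast, the median GC content was 58% in the HOX promoters and 58.3% in all. One promoter from each cluster is shown as the 100 bases before the start, with CCAAT or its reverse complement in capitals.
HOXA9 (minus strand): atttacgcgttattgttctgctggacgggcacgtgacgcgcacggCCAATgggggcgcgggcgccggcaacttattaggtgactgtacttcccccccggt
HOXB1 (minus strand): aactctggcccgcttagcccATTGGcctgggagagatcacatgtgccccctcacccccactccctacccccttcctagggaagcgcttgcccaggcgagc
HOXC4 (plus strand): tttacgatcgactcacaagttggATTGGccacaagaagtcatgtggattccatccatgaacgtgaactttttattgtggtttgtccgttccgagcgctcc
HOXD10 (plus strand): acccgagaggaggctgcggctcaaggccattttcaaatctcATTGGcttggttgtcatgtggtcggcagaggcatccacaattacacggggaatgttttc
In this 100-base stretch 12 of the 20 HOX promoters held the pentamer, with HOXC4 and HOXC5 both counted. The share over all promoters was not computed for this stretch, so the count has nothing to be compared with. A match is a description of the letters and not of binding. The hexamer TTTATG, searched on both strands, was found in 3 of the 20 (15%) against 11% of all promoters.

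All 3 lines carried H3K27ac in all 4 clusters, but in different amounts and at different places. The windows were most covered in SUIT2, with 117.2 and 119.8 kb of peaks in replicates 1 and 2. Panc327 had 93.0 and 88.6 kb, and BxPC3 had 73.9 and 80.5 kb. The 2 libraries of each line lay next to each other in this order, with no overlap between lines. As a share of all bases in a list, the windows held 0.152 and 0.147% in BxPC3, 0.195 and 0.189% in SUIT2, and 0.273 and 0.191% in Panc327, so Panc327 replicate 1 gave the largest share and Panc327 replicate 2 matched SUIT2.

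The clusters had the same order by covered bases in BxPC3 and SUIT2, HOXA, HOXB, HOXC and HOXD, and another order in Panc327. This order does not allow for window length, 220 kb for HOXB and 140 kb for HOXC. By mean covered share of the window, HOXC was above HOXB in BxPC3 (12.1 against 9.59%) and in Panc327 (21.6 against 4.59%). In SUIT2 these shares were close, at 18.4% for HOXC and 18.0% for HOXB. The shares that follow are of all covered HOX bases. HOXA was the most covered cluster of every library, with 35.1 to 42.5% of the HOX bases. HOXB came next in SUIT2 (33.3 and 33.7% in replicates 1 and 2) and BxPC3 (27.3 and 27.4%), but it was the least covered cluster of Panc327 (11.2 and 11.1%). HOXC came next in Panc327, with 34.8 and 31.9%. HOXD held 19.0 and 16.6% in Panc327, against 8.60 and 8.44% in BxPC3 and 5.55 and 5.25% in SUIT2. The lines thus differed most in HOXB, which was broad in SUIT2 and sparse in Panc327, and in HOXD, which was broad in Panc327.

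**Figure D1:**
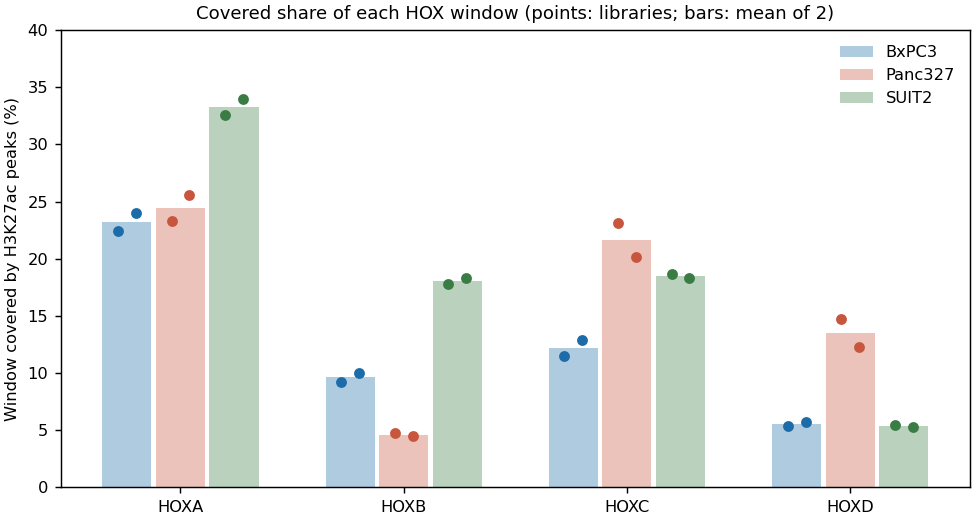
Share of each HOX window covered by H3K27ac peaks (vertical axis, percent) by cluster; points are the 2 libraries of a line and bars their mean. SUIT2 lies highest in HOXA and HOXB, and Panc327 highest in HOXC and HOXD.

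Merging the peaks of the 6 lists wherever they overlapped by 1 bp or more gave 74 regions in the windows. A region counted as marked in a line if each of its libraries had a peak there, and 58 were marked in at least 1 line. Where a region held several peaks of a library, its percentile below is that of the highest of them. Of these, 17 were marked in all 3 lines (29.3%, against 29.4% of the 43240 marked regions of the genome). Regions marked in Panc327 with no peak in the other 4 libraries numbered 10 (17.2%, against 7.9% genome-wide). SUIT2 had 8 such regions (13.8% against 17.7%) and BxPC3 had 4 (6.90% against 17.6%). Regions marked in both other lines and without a peak in the line itself numbered 4 for Panc327 (genome-wide 5.71%), 3 for SUIT2 (5.21%) and 2 for BxPC3 (1.6%). The shares of shared regions were alike in the clusters and the genome, and the share of Panc327-alone regions was the higher one in the clusters.

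The 4 BxPC3-alone regions were mostly faint: 1 was left among peaks with a −log10 q of at least 20, and 1 when every list was cut to its 27776 strongest peaks. With peaks required to cover at least 50% of a region, BxPC3 marked 21 regions instead of 36 and Panc327 23 instead of 35. Regions of 1 line alone then numbered 15 for SUIT2, 15 for Panc327 and 6 for BxPC3. Without that requirement, the Panc327-alone count was 21 when its replicate 2 was left out, and the SUIT2-alone count was 13 without its replicate 1. In each case the line with 1 library left was read from that library alone. Genome-wide shares were given above only for the unchanged setting. The counts at the changed settings have no such share beside them, so they do not show whether a line stood above the genome there. Panc327 replicate 1 had 10 regions that no other library called, 6 of them in HOXD, at or below the percentile 30.3 of its list by −log10 q. SUIT2 replicate 2 had 4, BxPC3 replicate 2 had 2, and the other 3 libraries had 0.

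Counted in bases rather than regions, 165.2 kb of the windows were covered in both replicates of 1 line or more. Of these bases 16.8% were shared by all 3 lines, 30.2% belonged to SUIT2 alone, 21.3% to Panc327 alone and 7.72% to BxPC3 alone. Over the genome the same shares were 21.6, 32.8, 6.95 and 17.4%. The clusters differed among themselves. HOXC had the largest share common to all lines, 29.7%, and HOXD the smallest, 5.35%. Panc327-alone bases were 48.3% of HOXD but 1.42% of HOXB, where SUIT2-alone bases were 50.2%.

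**Figure D2:**
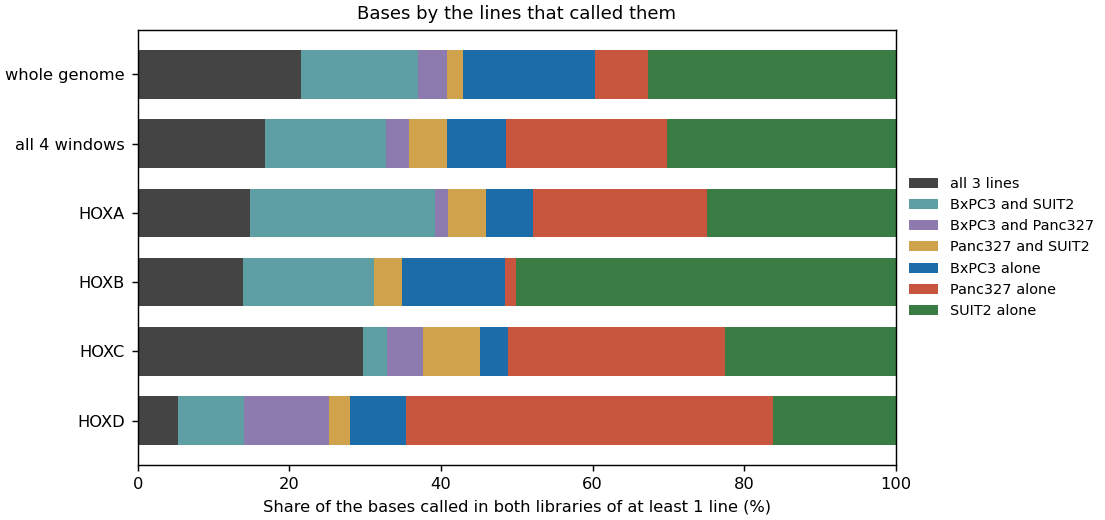
Bases covered in both replicates of 1 line or more (horizontal axis, percent of them), split by which lines called them, for the genome, the 4 windows together and each window. SUIT2-alone bases fill the largest part of HOXB (50.2%) and Panc327-alone bases the largest part of HOXD (48.3%).

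HOXA carried H3K27ac in several blocks in every line, with some shared by all of them, regions in the middle called in Panc327 alone and a group 13 end that was broad in SUIT2. Peaks covered 31.4 and 33.6 kb in BxPC3 replicates 1 and 2, 32.6 and 35.9 kb in Panc327, and 45.6 and 47.6 kb in SUIT2. The means were 32.5 ± 1.61, 34.3 ± 2.27 and 46.6 ± 1.42 kb (SD, n = 2). BxPC3 and Panc327 overlapped in this amount and SUIT2 lay above both. Among the 12994 genome tiles of the same length with a peak in any library, 0.246% were covered at least as much in BxPC3, 0.1% in Panc327 and 0.323% in SUIT2. HOXA was therefore among the most covered stretches of its length in each line.

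The position of the covered bases separated BxPC3 from the others. The group 13 side of HOXA held 32.1 and 28.8% of them in BxPC3. It held 57.6 and 48.7% in Panc327 and 50.6 and 50.1% in SUIT2. Their mean distance from the group 13 edge was 86.8 and 88.1 kb for BxPC3, 66.7 and 72.9 kb for Panc327, and 65.8 and 65.6 kb for SUIT2. The covered bases of BxPC3 lay nearer to the HOXA2 end in both libraries.

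A broad block common to all lines lay 101.7 to 110.6 kb from the group 13 edge (chromosome 7, 27149367 to 27158282). BxPC3 covered 8714 and 8879 bp of it with 1 peak per library, at ranks 95 and 126 by width among all peaks of those lists. SUIT2 covered 7845 and 7822 bp. Panc327 covered 2600 and 4661 bp of the same block, but with peaks at percentile 99.3 and 99.0 of its lists by −log10 q. The block was strong in all 6 libraries, from percentile 97.1 upwards, and narrower in Panc327. A common region closer to HOXA2 (27134744 to 27140650) was at percentiles 99.3 and 99.2 in Panc327 and at 93.0 to 94.1 in the other 4 libraries. The next region towards the group 13 end (27158651 to 27163480) was covered over 3568 and 4377 bp in BxPC3 and over 4704 and 4780 bp in SUIT2, and it held no peak in Panc327. A second block common to all lines lay 45.6 to 51.6 kb from the edge (27208447 to 27214421), where BxPC3 had fold values over background of 72.2 and 101.6, the authors' own per-peak values. A further one (27199480 to 27201915) was at percentiles 89.0 and 92.2 of the BxPC3 lists, 95.8 and 90.3 of the Panc327 lists, and 78.5 of both SUIT2 lists.

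Panc327 had 6 regions of its own in HOXA, and 4 of them were among its stronger peaks. The strongest lay on chromosome 7 from 27169404 to 27171361, 88.6 to 90.6 kb from the group 13 edge. Its fold was 173.7 in replicate 1 and 26.6 in replicate 2, at ranks 157 and 446 of those lists by −log10 q. Folds of different lists are not on 1 scale, and by rank the peak stood at percentiles 99.4 and 98.5 of the Panc327 lists. No BxPC3 or SUIT2 library had a peak there. The others in this group were at 27181200 to 27183647 (percentiles 84.6 and 90.3), 27195031 to 27196880 (93.0 and 92.4) and 27222920 to 27225972 (91.2 and 94.5). These 4 stronger regions lay between 34.0 and 90.6 kb from the group 13 edge. Weaker Panc327-alone regions lay at 27142842 to 27143523 and 27227523 to 27229151, at or below percentile 42.5. A region common to the lines, 27186276 to 27191672, was called in all 6 libraries but covered 5034 and 5189 bp in Panc327 against 468 and 1069 bp in BxPC3 and 956 and 1252 bp in SUIT2.

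The local background under the HOXA peaks of Panc327 had a median of 1.95 and 2.07 times the level of the list's lowest peaks in replicates 1 and 2, against 1.26 and 1.34 over all its peaks. BxPC3 had 1.53 and 1.25 in HOXA, also above its list medians of 1.23 and 1.08. SUIT2 had 1.09 and 1.00, against 1.08 and 1.00 over its lists. The part of this raised background in the Panc327 result was not tested. The fold and −log10 q of a peak are computed over that background.

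SUIT2 marked the group 13 end of HOXA most broadly. A peak of 9.68 kb in replicate 1 (27232597 to 27242281) and of 10.9 kb in replicate 2 (27232576 to 27243471) lay there, at ranks 330 and 264 by width. Its percentile by −log10 q was 95.4 and 96.6. Within the merged region that holds it, BxPC3 covered 2605 and 2351 bp and Panc327 2932 and 2457 bp, with 2 peaks per library. The higher of these peaks was at percentiles from 27.2 to 55.9 and the lower at 7.87 to 55.0. A SUIT2-alone region of 4826 and 4930 bp followed at 27247384 to 27252313, 7.69 to 12.6 kb from the edge. Of 4 equal parts of the window, the one nearest to that edge held 15.2 and 15.8 kb of peaks in SUIT2, 5.93 and 4.80 kb in Panc327, and 2.60 and 2.35 kb in BxPC3. The part farthest from that edge held 11.1 and 11.8 kb in BxPC3, 10.6 and 10.7 kb in SUIT2, and 5.87 and 8.94 kb in Panc327. At the opposite edge itself, a region at 27119773 to 27121974 was called in both BxPC3 and both Panc327 libraries and in neither SUIT2 library. In SUIT2 the last 14.7 and 14.8 kb at the HOXA2 end held no peak. The remaining regions of a single line or of a pair of lines were small: 27122183 to 27122518 and 27194452 to 27195007 in BxPC3 alone and 27147960 to 27148728 in SUIT2 alone, all at or below percentile 18.4. One at 27218981 to 27220399, missing from BxPC3, reached 52.2 in both SUIT2 libraries.

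**Figure D3:**
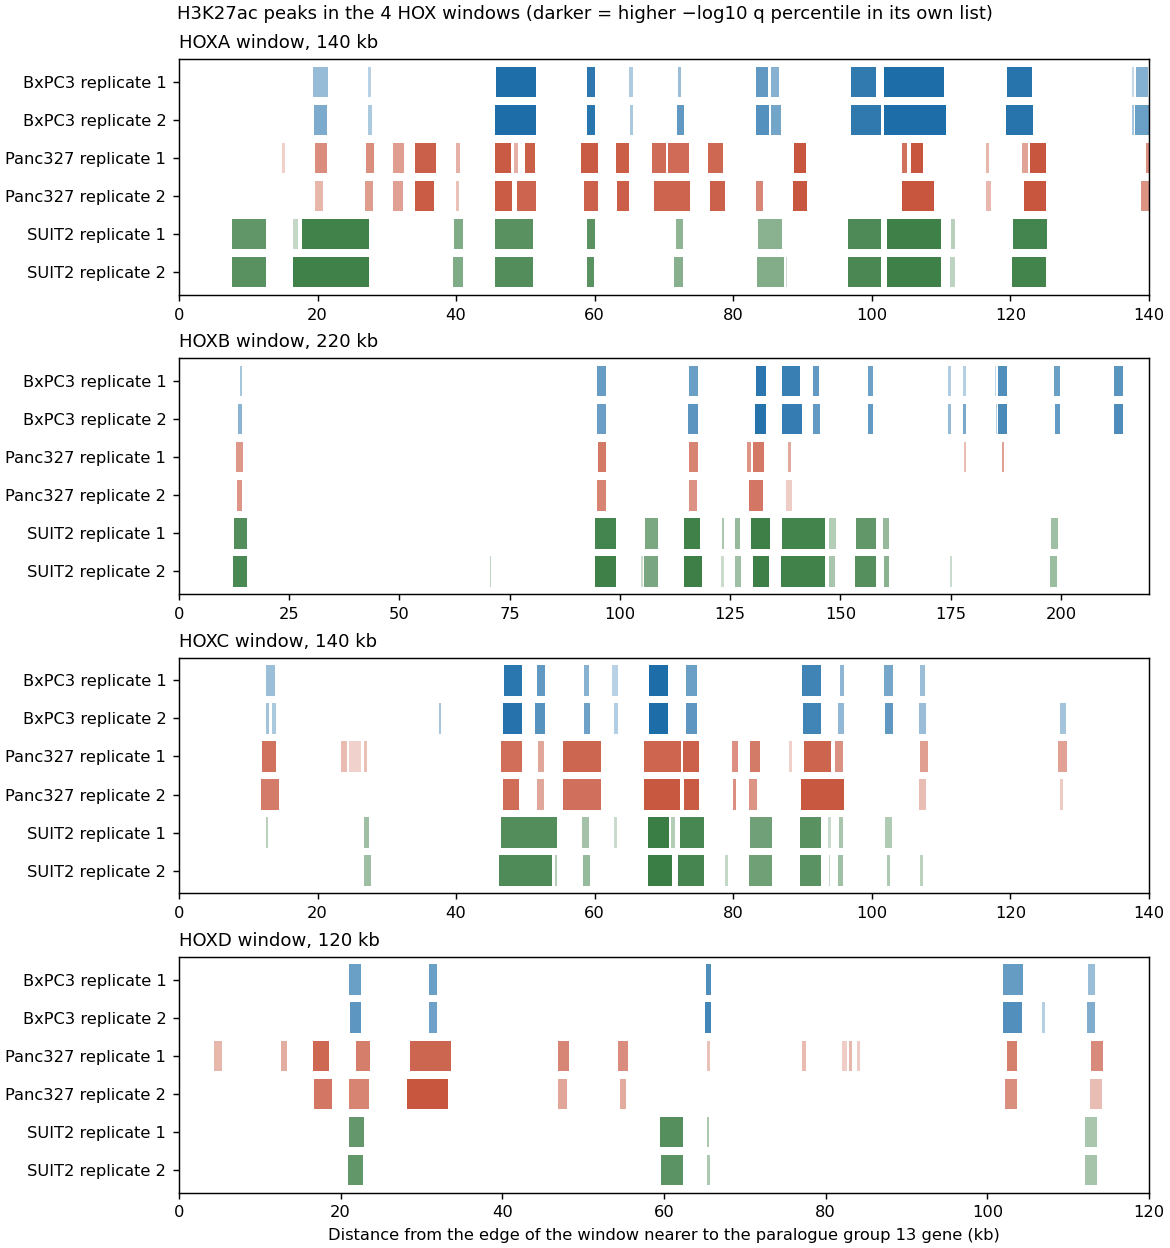
Peaks of the 6 libraries in each HOX window against the distance in kb from the group 13 edge; each box is 1 peak, coloured by line and darker for a higher percentile of −log10 q in its own list. The broad SUIT2 peak near the HOXA edge, the Panc327 peaks in the middle of HOXA and the empty stretch of HOXB can be read from it.

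HOXB was the cluster with the largest differences in amount. SUIT2 covered 39.1 and 40.3 kb, BxPC3 20.2 and 22.04 kb, and Panc327 10.4 and 9.82 kb. The means were 39.7 ± 0.890, 21.1 ± 1.34 and 10.1 ± 0.390 kb (SD, n = 2), and the lines did not overlap. Of 9390 genome tiles of this length, 1.32% were covered at least as much in SUIT2, 4.05% in BxPC3 and 12.4% in Panc327. At −log10 q of at least 20 the Panc327 mean was 9.44 kb, which left the order in place.

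Most covered bases of HOXB lay past the midpoint, towards HOXB1, in every library. The group 13 side share was lowest for BxPC3: replicate 1 had 11.3% and replicate 2 had 14.1%. Both SUIT2 libraries were higher (27.6 and 29.2%), and both Panc327 libraries were highest (31.7 and 34.03%). A long stretch without peaks separated the peak nearest to the group 13 edge from the rest in every library, broken by 1 faint SUIT2 replicate 2 peak (46749130 to 46749418, percentile 10.2). It ran from 14.4 to 94.9 kb in BxPC3 replicate 1, from 14.5 to 94.9 kb in Panc327 replicate 1 and from 15.3 to 94.3 kb in SUIT2 replicate 1. HOXB13 is known to lie apart from the other HOXB genes. The isolated region (46804667 to 46807676) was called in all 6 libraries. It covered 2920 and 3007 bp at percentiles 84.0 and 88.9 in SUIT2, 1470 and 1191 bp at 47.4 and 49.2 in Panc327, and 437 and 1044 bp at 18.2 and 34.1 in BxPC3. Both SUIT2 libraries were above the others in width and in percentile.

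On the far side of the gap, 4 regions between 94.3 and 146.5 kb from the edge were called in all 6 libraries. All 4 were broadest in SUIT2. The widest (46673508 to 46683383) was 1 peak of 9.83 and 9.80 kb in SUIT2, at ranks 316 and 350 by width. BxPC3 covered 5694 and 6007 bp of it, and Panc327 606 and 1313 bp, at percentiles 33.4 and 6.14. The strongest HOXB peak of both BxPC3 and both SUIT2 libraries lay in the neighbouring region (46686025 to 46691071), at percentiles 90.3 and 93.7 in BxPC3 and 97.9 and 98.0 in SUIT2. Panc327 reached 71.8 and 73.3 there, its highest HOXB values as well. SUIT2 had 5 regions of its own in HOXB, the widest 3065 and 3275 bp (46711262 to 46714536), at percentiles 55.8 and 56.5. The others, at 46658976 to 46660351, 46671035 to 46672670, 46692624 to 46693979 and 46696284 to 46697038, were at or below 45.7. Panc327 lacked 2 regions that both other lines had. The one at 46661926 to 46666579 covered 4517 and 4567 bp in SUIT2 and 1232 and 1305 bp in BxPC3, and the one at 46620237 to 46622386 covered 1681 and 1470 bp and 1208 and 1145 bp.

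The HOXB1 end of the window was covered most in BxPC3. In the part farthest from the group 13 edge, of 4 equal ones, BxPC3 had 6.78 and 7.09 kb of peaks, SUIT2 had 1.68 and 1.91 kb, and Panc327 had 0.980 kb in replicate 1 and 0 in replicate 2. A BxPC3-alone region of 1821 and 2105 bp lay at 46605824 to 46607928, 212.1 to 214.2 kb from the edge, at percentiles 62.9 and 70.2. A small one lay at 46634478 to 46634879, at or below 10.5. The region at 46632237 to 46634262 covered 2026 and 1916 bp in BxPC3, at percentiles 69.2 and 72.6. It also held a peak of 416 bp in Panc327 replicate 1, and no peak in SUIT2. BxPC3 was thus the line with peaks nearest to the low-number end of HOXB. The covered bases lay on average 149.3 and 145.3 kb from the group 13 edge in BxPC3, 124.9 and 123.5 kb in SUIT2, and 110.5 and 107.2 kb in Panc327. Outside the window, the stretch of equal length beyond the group 13 edge was covered by 22.2 and 25.6 kb in SUIT2, 9.88 and 14.3 kb in Panc327 and 6.03 and 6.86 kb in BxPC3, and the stretch beyond the HOXB1 end by at most 0.566 kb in any library.

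**Figure D4:**
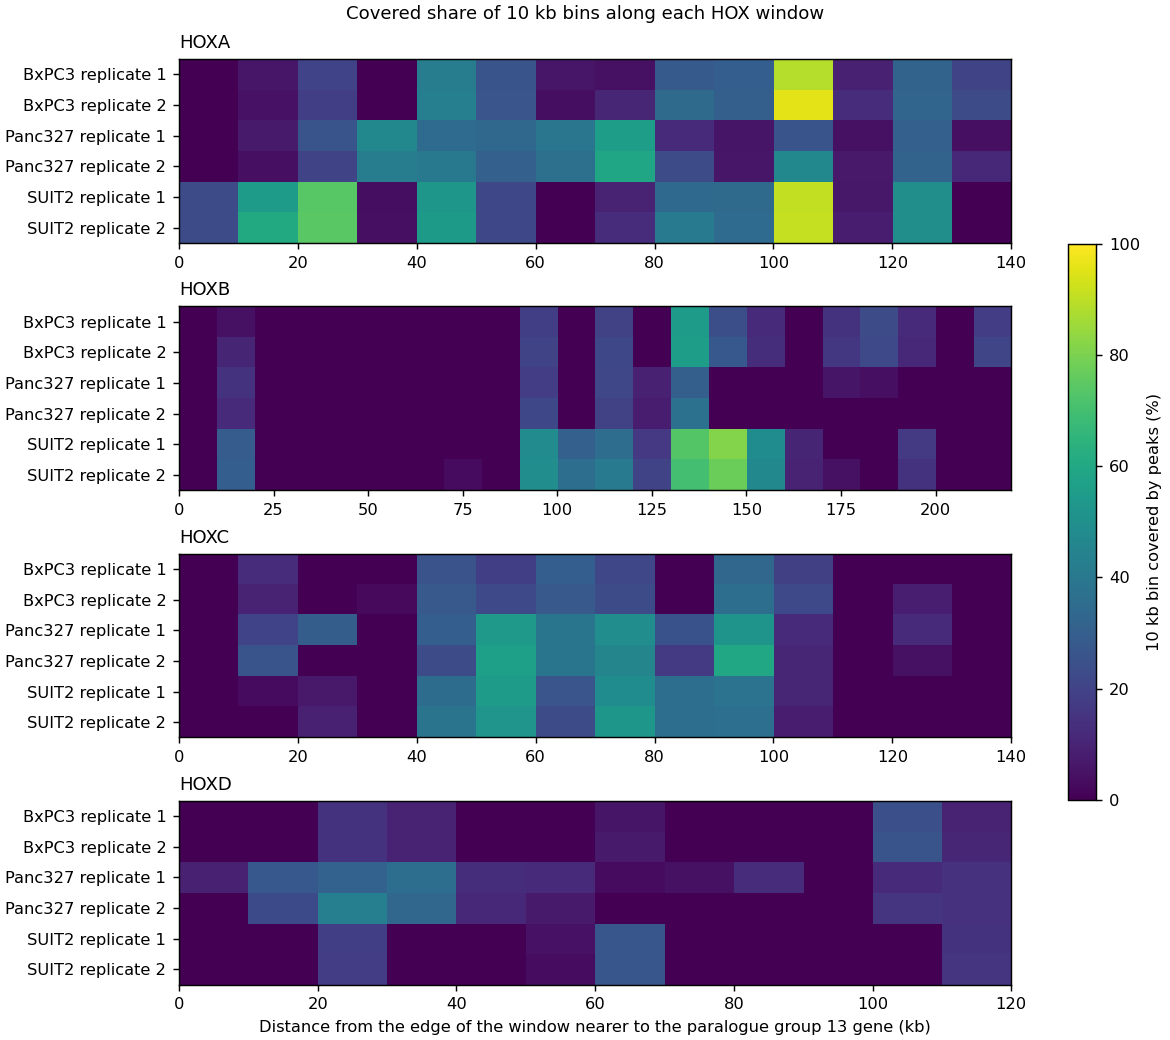
Share of each 10 kb bin covered by peaks (colour, percent) along the 4 windows, with the distance in kb from the group 13 edge on the horizontal axis and 1 row per library. In HOXB the bin at 140 to 150 kb is covered by 81.3 and 77.6% in SUIT2, by 24.2 and 27.5% in BxPC3 and by 0 in Panc327.

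Of the 4 clusters, HOXC had the largest share of bases common to the 3 lines. Its marks lay in a central block between 46 and 108 kb from the group 13 edge, and single regions lay outside it. Panc327 covered 32.3 and 28.3 kb, SUIT2 26.1 and 25.6 kb, and BxPC3 16.0 and 18.0 kb. The means were 30.3 ± 2.87, 25.8 ± 0.326 and 17.0 ± 1.40 kb (SD, n = 2). The lines did not overlap, and 0.277%, 1.99% and 3.18% of the 12994 tiles were covered at least as much in Panc327, SUIT2 and BxPC3. The group 13 side held 53.5 and 51.1% of the bases in Panc327, 48.7 and 48.0% in SUIT2, and 54.1 and 50.2% in BxPC3, so the balance of the sides was close in all 6 libraries.

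The strongest HOXC signal of every library lay in a region common to all lines. In the region 54387053 to 54395818, 67.1 to 75.8 kb from the edge, the highest peak was at percentile 99.4 and 99.6 in BxPC3, 99.4 and 99.3 in SUIT2, and 90.7 and 98.0 in Panc327. In BxPC3 that peak ranked 210 and 153 of the whole list by −log10 q. The lines differed in how much of the block they covered: 7679 and 7370 bp in Panc327, 7126 and 7192 bp in SUIT2, and 4291 and 4490 bp in BxPC3. Among the HOXC regions called in all 6 libraries, a neighbour (54375425 to 54380953) set Panc327 apart. It covered 5523 and 5476 bp there, against 741 and 775 bp in BxPC3 and 929 and 1052 bp in SUIT2. SUIT2 was broadest in the next one (54366165 to 54374601), with 8139 and 8004 bp against 3446 to 4223 bp in the other 4 libraries. In the remaining one (54409638 to 54416043) Panc327 covered 5184 and 6187 bp, with the highest peak at percentiles 88.5 and 97.8. The other 4 libraries covered 3322 to 4159 bp with 2 or 3 peaks each, the highest at 77.9 to 79.2 and the rest at or below 32.6.

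A few HOXC regions were absent from a line. The region 54402302 to 54405638 was called in both Panc327 and both SUIT2 libraries, over 1504 and 1082 bp and over 3261 and 3252 bp, and in no BxPC3 library. The region 54421775 to 54423072 was called in both BxPC3 and both SUIT2 libraries and in no Panc327 library. One region was marked in Panc327 alone (54399832 to 54400618), at percentiles 53.5 and 54.0. Nearest to the group 13 edge, a region at 54331794 to 54334396 covered 2020 and 2603 bp in Panc327, at percentiles 77.4 and 69.9. In BxPC3 it covered 1268 and 969 bp at 24.9 and 20.3. SUIT2 had 311 bp in replicate 1 and no peak in replicate 2. Nearest to the group 13 edge, Panc327 was therefore highest in HOXC, whereas SUIT2 was highest in HOXA and HOXB.

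HOXD was sparse in BxPC3 and SUIT2 and broad in Panc327. Panc327 covered 17.6 and 14.7 kb, BxPC3 6.36 and 6.79 kb, and SUIT2 6.50 and 6.29 kb. The means were 16.2 ± 2.10, 6.58 ± 0.308 and 6.40 ± 0.148 kb (SD, n = 2), so BxPC3 and SUIT2 overlapped and Panc327 lay above them. Of 14410 tiles, 2.07% were covered at least as much in Panc327, 16.8% in BxPC3 and 21.4% in SUIT2. The background under the HOXD peaks of Panc327 had medians of 1.01 and 1.00 times the level of the list's lowest peaks, so it was not raised there as in HOXA, and in HOXC they were 1.36 and 1.47.

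The Panc327 excess lay on the HOXD13 side. That side held 73.7 and 80.0% of the covered bases in Panc327, 37.7 and 35.8% in BxPC3, and 36.1 and 33.9% in SUIT2. The broadest Panc327 peak (176968573 to 176973627 in replicate 1, 176968196 to 176973313 in replicate 2) was 5.06 and 5.12 kb wide, at ranks 201 and 594 by width. By −log10 q it ranked 3753 (percentile 86.5) in the first list and 306 (percentile 99.0) in the other. BxPC3 covered 952 and 963 bp of that region, and SUIT2 had no peak in it. Nearer to the group 13 edge, a Panc327-alone region at 176956537 to 176958900 reached percentiles 84.8 and 73.5. Further Panc327-alone regions lay at 176986905 to 176988216 and 176994324 to 176995566, at percentiles from 33.2 to 62.5.

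SUIT2 had 1 strong HOXD region of its own. It lay near the middle of the window, at 176999496 to 177002380, 59.5 to 62.4 kb from the edge. It covered 2885 and 2620 bp with folds of 67.8 and 59.4, at percentiles 81.0 and 77.7, and no other library had a peak in it. It was the highest HOXD peak of both SUIT2 libraries. The highest HOXD peak of BxPC3 was a narrow one next to it (177005121 to 177005830), with folds of 23.2 and 31.9 at percentiles 69.2 and 76.0. SUIT2 also covered 310 and 363 bp of that narrow region, at percentiles 23.8 and 22.1, and Panc327 replicate 1 covered 297 bp. Towards HOXD1, the region at 177041914 to 177044365 was called in both BxPC3 and both Panc327 libraries and in no SUIT2 library. The last region of that end (177052100 to 177054300) and one at 176960959 to 176963659 were the only HOXD regions called in all 6 libraries.

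Peaks of the HOX windows were somewhat stronger than the median peak of the same list. The median percentile by −log10 q was 53.0 and 57.6 for BxPC3, 55.3 and 62.6 for Panc327, and 55.8 and 51.2 for SUIT2, where 50 is the median of a list by construction. HOXA stood above that in Panc327, with 81.7 and 88.7, and in SUIT2, with 76.1 and 78.7. BxPC3 had 38.9 and 59.0 in HOXA, so its libraries lay on both sides of the median. HOXC peaks of SUIT2 were mostly faint, at medians of 28.5 and 31.7, beside the few strong ones named above. Of the BxPC3 peaks in the windows, 6 of 42 and 7 of 46 were in the top 10% of their list. The same counts were 9 of 59 and 12 of 40 for Panc327, and 9 of 41 and 9 of 44 for SUIT2. As shares, the Panc327 replicates differed most, at 15.3 and 30%. HOX peaks were as wide as or wider than the list median in each library, at 1251 and 1257 bp for BxPC3, 1312 and 1942 bp for Panc327, and 1844 and 1482 bp for SUIT2. The list medians were 1070 and 1030, 1008 and 1292, and 1504 and 1481 bp.

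**Figure D5:**
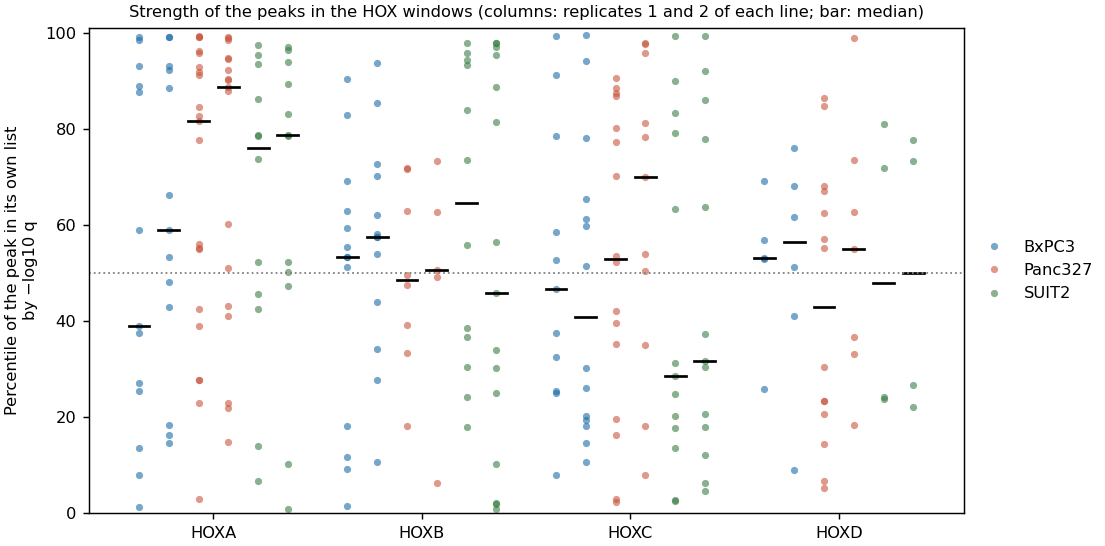
Percentile of each HOX peak in its own list by −log10 q (vertical axis) for replicates 1 and 2 of each line within each cluster; points are peaks, bars are medians and the dotted line is the list median. Panc327 and SUIT2 have their highest medians in HOXA.

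Replicates overlapped more in the 4 windows together than over the genome in each line. The Jaccard index, bases covered in both lists over bases covered in either, was 0.870 in the 4 windows for the BxPC3 pair, 0.725 for the Panc327 pair and 0.900 for the SUIT2 pair, against 0.814, 0.519 and 0.868 over the genome. Between lines, the index in the windows averaged 0.423 for BxPC3 and SUIT2, 0.318 for BxPC3 and Panc327, and 0.262 for Panc327 and SUIT2. Over the genome the same means were 0.392, 0.404 and 0.312. Over the 4 windows together BxPC3 thus overlapped more with SUIT2 than with Panc327, while over the genome its 2 means differed by little. In HOXB they also differed by little, at 0.327 with SUIT2 and 0.329 with Panc327. By cluster, the Panc327 and SUIT2 means were 0.404 in HOXC, 0.251 in HOXA, 0.214 in HOXB and 0.113 in HOXD. The BxPC3 and SUIT2 mean was highest in HOXA, at 0.515, where those lines share the region next to the common block that Panc327 lacks. The libraries of a line come from the same cell line and the windows were chosen for a gene family, so these values are descriptions without a test.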

How the data were processed

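The submitters' processing notes name hg19 and these tools: bcl2fastq (1.8.4) and Bowtie (1.1.1), with MACS2 for peaks. The settings and the MACS2 version are not given in the sources used here. The authors deposited 1 narrowPeak list per H3K27ac library. Its fold is the authors' ratio over local background, and its −log10 p and −log10 q values are deposited as the peak caller gave them. All were ranked only within a list. Chromosomes 1 to 22 and X were used. Covered bases were clipped to the windows. Tiles are consecutive genome stretches of a window's length with a peak in any library. Local background was solved from the deposited fold and −log10 p as a Poisson tail, to within 0.001 of −log10 p, and divided by the 5th percentile of the list. The solved pile-ups were whole numbers for 99.9 to 100% of Panc327 and SUIT2 peaks but for 0.0704 and 0.162% of BxPC3 peaks (within 0.001 of a read), and the cause was not tested. Region classes and this solution were tested on simulated data. The simulated pile-ups were whole numbers only, so the solution was not tested for pile-ups like those of the BxPC3 lists. Sequences and gene order are from RefSeq GRCh38.p14. By rule, the regions named are each library's widest and strongest peak, the regions of 1 line alone, those missing from 1 line and those in all 6 libraries. Outside the rule, the HOXC region nearest to its group 13 edge, the HOXB region at 46632237 and the faint HOXB peak at 46749130 were picked once their values had been seen. The members and lists were chosen with earlier results of these data known. Marker genes and HOX cofactors need hg19 gene positions and were not analysed here. Scripts ran on Python 3.11.15 with pandas 2.3.3, numpy 2.4.6, matplotlib 3.10.9 and scipy 1.17.1.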

Additional observations from a re-analysis of the deposited data

How the results depend on the processing

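Among 30 values recomputed (covered length and group 13 side share per window and line, marked and line-alone regions per line), 22 moved by less than the replicate spread, or by at most 1.5 times for counts, at a −log10 q of at least 20, and 26 when every list was cut to its 27776 strongest peaks. At a −log10 q of at least 20, covered length was 9.44 kb for Panc327 in HOXB, 15.3 kb for BxPC3 in HOXC and 24.6 kb for SUIT2 in HOXC. The group 13 side shares were then 50.9% for SUIT2 in HOXA, 35.5% for Panc327 in HOXB, 49.3% for BxPC3 in HOXC and 83.2% for Panc327 in HOXD, and BxPC3 had 1 region of its own. With lists cut to equal length, covered length in HOXC was 14.8 kb for BxPC3 and 25.1 kb for SUIT2, the group 13 side share was 49.0% for SUIT2 in HOXC, and BxPC3 again had 1 region of its own. When presence required coverage of at least 50% of a region, BxPC3 marked 21 regions instead of 36 and Panc327 23 instead of 35, since fewer peaks then count as present. SUIT2 then had 15 regions of its own instead of 8, Panc327 15 instead of 10 and BxPC3 6 instead of 4. Leaving out each library in turn gave 10 to 21 Panc327-alone regions, the highest without Panc327 replicate 2, and 8 to 13 SUIT2-alone regions, the highest without SUIT2 replicate 1. Genome-wide shares of such regions were not given at the changed settings. No paired analysis was possible because these values come from no test, a choice made for the size of the design, and the labels do not tie same-numbered libraries of different lines to each other. Read depth is not in the lists, so a region without a peak may be a region below the threshold of that list.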
